A study of Mus musculus with 42 samples.

Results

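Morc2a, a neighbour of Tug1 that shares a bidirectional promoter with it, codes for an ATPase that works with the HUSH complex. Its 10 partners and paralogs measured here are the HUSH subunits Mphosph8, Fam208a and Pphln1, the H3K9 methyltransferase Setdb1 with its partner Atf7ip, the corepressor Trim28, and the MORC genes Morc1, Morc2b, Morc3 and Morc4. They were chosen by gene name, for what they are known to do beside Morc2a and not by their own values. The choice was made with earlier results of these data known. They are 10 of the 26653 genes of the table. All 10 were found, with Fam208a listed under its older symbol D14Abb1e (ENSMUSG00000040651.8). The question put to them was whether any was higher where Morc2a was lost, above all in liver, prostate and spleen.

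RNA was sequenced from 42 samples of male mice on a C57BL/6J background, 22 wild-type and 20 knockout, taken from heart, liver, spleen, prostate, testes, eye and mouse embryonic fibroblasts (MEFs, at passage 2). The knockout animals carried the Tug1_tm1.1Vlcg allele on both chromosomes, in which a lacZ reporter replaces the body of Tug1, a long noncoding RNA gene, while its promoter stays in place. Wild-type and knockout samples numbered 4 and 3 in testes, 3 and 2 in prostate, and 3 and 3 in each of the other tissues, and the age of the adult animals is not given for these samples in the sources used here. The MEFs had been derived from mid-gestation embryos of shared litters. The deletion is present in every cell of the body from conception, so it separates neither cell types nor stages. It removes the DNA of the gene body, the RNA made from it and part of a predicted reading frame together. The first exon stays.

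HUSH is a chromatin complex that keeps repeats, newly inserted elements and some genes silent. Mphosph8 reads methylated lysine 9 of histone H3, Fam208a (also called TASOR) is the scaffold, and Pphln1 (periphilin) is the remaining subunit. The complex acts together with Setdb1, which writes that methyl mark, and with the MORC2 ATPase, which compacts chromatin, while Trim28 (KAP1) brings Setdb1 to DNA through zinc finger proteins. The MORC proteins share an ATPase of the same fold, and some of them act in the germ line, where silencing of transposons protects the developing sperm.

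None of the members lies on chromosome 11 with Tug1 and Morc2a. Mphosph8 and Fam208a are both on chromosome 14, Morc1 and Morc3 both on chromosome 16, and each of the others is the only member on its chromosome. In the GENCODE vM21 annotation of GRCm38, Mphosph8 is at chr14:56668248-56697430 on the plus strand, Morc3 at chr16:93832121-93876073 on the plus strand, and Morc2b at chr17:33113351-33139683 on the minus strand. Morc2a is at chr11:3649191-3690477 on the plus strand, where 483 of its 6422 exonic bases (7.52%) are shared with Tug1 on the other strand. Because the kit does not keep the strand, reads from those bases cannot be told apart between Tug1 and Morc2a. The transcripts of Morc2a and its paralog Morc2b had at most 38 bases in a row in common, and no window of a read's length occurred in both, so reads of one would not have counted to the other by identity.

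The starts of 9 members were in the RefSeq table for GRCm38.p6, and 2 of them are shown as examples of a broad and a testes-only member. Mphosph8 is 1 of 7 members with a mean of at least 1 FPKM in every tissue. The 250 bases before the start of Mphosph8, measured in all 7 tissues, and of Morc2b, measured in testes alone, are given 5′ to 3′ on the strand of the gene, with each CG dinucleotide in capitals. Those of Mphosph8 are at chr14:56667998-56668247 (plus strand) and those of Morc2b at chr17:33139684-33139933 (minus strand).
Mphosph8: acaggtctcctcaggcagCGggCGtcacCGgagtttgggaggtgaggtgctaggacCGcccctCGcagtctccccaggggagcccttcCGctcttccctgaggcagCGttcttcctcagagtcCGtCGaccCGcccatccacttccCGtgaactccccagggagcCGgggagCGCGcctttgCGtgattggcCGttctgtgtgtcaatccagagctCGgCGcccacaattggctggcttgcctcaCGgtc
Morc2b: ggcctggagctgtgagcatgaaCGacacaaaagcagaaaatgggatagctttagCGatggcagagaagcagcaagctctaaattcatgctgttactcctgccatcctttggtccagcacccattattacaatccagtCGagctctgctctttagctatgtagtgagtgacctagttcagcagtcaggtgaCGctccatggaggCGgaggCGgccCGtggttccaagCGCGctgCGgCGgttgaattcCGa
The stretch of Mphosph8 held 19 CG and that of Morc2b 12. The same stretch of Setdb1, also measured in all 7 tissues, held 13. In windows of 300 bases that reach 50 bases past the start, Morc2b had 13 CG, the fewest among the 9 members, and the others had from 15 in Setdb1 to 53 in Pphln1. Over the 32851 windows in the table the median was 7 CG, and 37.9% held 13 or more. That cut is the members' own lowest count, so all 9 reach it by construction. Whether the members differ from other genes in CG was not tested.

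Each value is a deposited FPKM (fragments scaled by transcript length and library size) that combines the replicates of a genotype, so there is 1 value per genotype and tissue and no spread between animals. The authors' own test results, which draw on the replicates, were not used here, so whether a difference is larger than the spread between replicates is not stated for any gene below, and no test was made. In whole tissue, fewer cells of a type and less RNA per cell also cannot be told apart. Changes are given as log2((KO + 0.1)/(WT + 0.1)), and a gene was counted in a tissue where the mean of both genotypes was at least 1 FPKM. The tissue markers, 4 per tissue, summed higher in their own tissue than in any other, although Tgm4 in prostate and Serpina1c in liver were each below 1 FPKM there. The knockout values of Tug1 were between 0.00753 FPKM in liver and 0.402 in testes, against 11.2 to 27.7 in wild-type. Markers of other cells differed in some tissues: the summed pancreas markers (Prss2, Cpa1, Cela1) were 16.8 FPKM in wild-type and 1079 in knockout spleen, those of seminal vesicle (Svs2, Svs4, Svs5) 8717 and 16536 in prostate, and those of macrophages (Adgre1, Cd68) 17.6 and 27.0 in liver.

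No member differed by more than 1.5 times between wild-type and knockout in any of the 7 tissues. That limit was passed by 1.92% of all counted genes in testes, 3.08% in prostate, 6.02% in spleen, 3.51% in eye, 2.32% in heart, 4.81% in liver and 3.18% in MEFs. With 7 to 9 members counted in a tissue, a count of 0 is near what those shares amount to, and it sets the members apart from no other genes. Of the 70 values of a member in a tissue, 55 were counted, of which 34 were smaller than 0.1 in size and 2 larger than 0.3 on the log2 scale. Mphosph8, Fam208a, Pphln1, Setdb1, Atf7ip, Trim28 and Morc3 were counted in all 7 tissues, Morc4 in 4, and Morc1 and Morc2b in testes only.

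**Figure D1:**
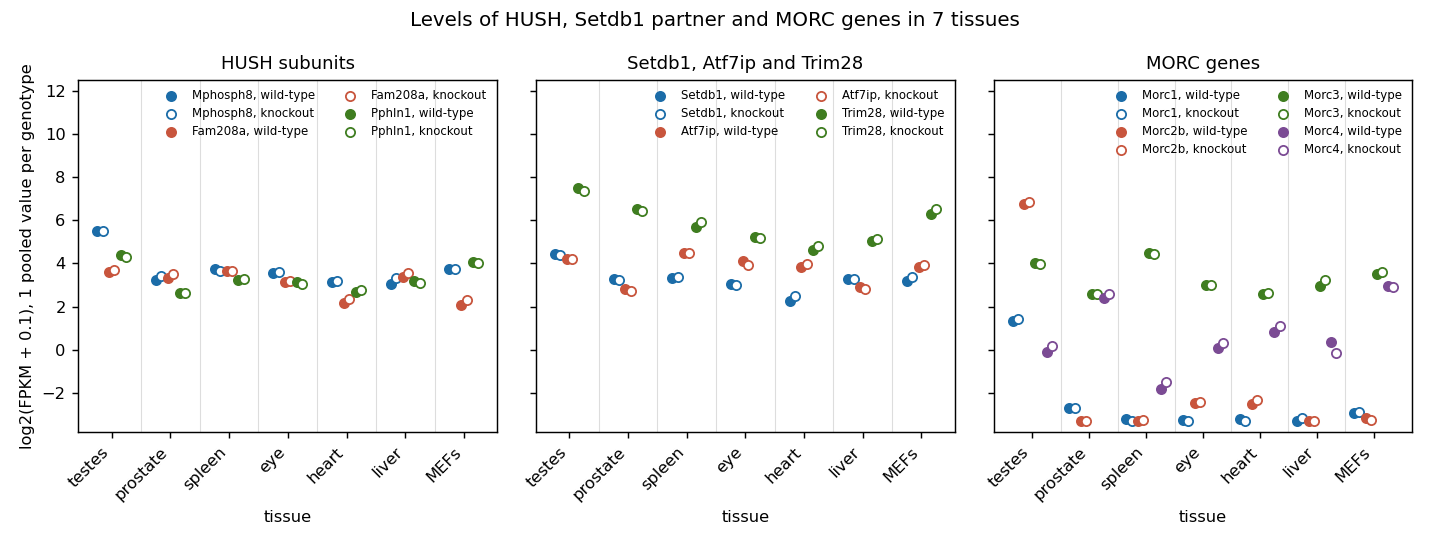
Levels of the 10 members on the log2(FPKM + 0.1) scale (vertical axis) in 7 tissues (horizontal axis), with filled points for wild-type and open points for knockout, 1 pooled value each. Points of a gene lie far closer between genotypes than between tissues for Morc2b, which was at 108 FPKM in wild-type testes and under 0.1 in each of the other tissues.

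The HUSH subunits were present together in every tissue. Mphosph8, the reader of the methyl mark, was at 45.4 FPKM in wild-type testes, 13.4 in spleen, 13.2 in MEFs, 11.6 in eye, 9.24 in prostate, 8.83 in heart and 8.05 in liver. Fam208a, the scaffold, ranged from 4.05 FPKM in MEFs to 12.3 in spleen, and Pphln1 from 6.17 in prostate to 21.0 in testes. The most abundant subunit exceeded the least abundant by 1.29 times in wild-type liver and by 4.13 times in MEFs, where Pphln1 was at 16.7 FPKM and Fam208a at 4.05. The sum over the subunits was 27.3 FPKM in wild-type liver and 30.1 in knockout, 25.3 and 27.7 in prostate, and 35.0 and 34.2 in spleen.

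Setdb1 and Atf7ip were of similar level to the HUSH subunits, while Trim28 stood above all other members in every wild-type tissue. Setdb1 was at 21.6 FPKM in wild-type testes, its highest level, and 4.69 in heart, its lowest. Atf7ip, which keeps Setdb1 stable and in the nucleus, was at 22.4 FPKM in spleen and 6.90 in prostate. It exceeded Setdb1 by 2.97 times in heart and 2.29 times in spleen, and was below it in prostate, where it was 0.720 times Setdb1, as well as in liver and testes. Trim28 was at 179 FPKM in wild-type testes, 90.4 in prostate, 77.9 in MEFs, 51.4 in spleen, 37.4 in eye, 32.7 in liver and 24.2 in heart. It exceeded Setdb1 by 3.41 times in wild-type liver and by 9.44 times in prostate, with 3.57 and 9.28 times in the knockout.

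The MORC genes differed most in where they were present. Morc2b, a germ cell gene related to Morc2a and known for a role in meiosis, was at 108 FPKM in wild-type testes and 113 in knockout, and in the other tissues it was at most 0.0993 FPKM in either genotype. In liver it was listed at 0 in both genotypes. Morc1, known for silencing transposons in male germ cells, was at 2.44 FPKM in wild-type testes and 2.60 in knockout, and at most 0.0547 FPKM elsewhere. After rescaling each group to a sum of 1000000, wild-type testes held 99.8% of the summed wild-type level of Morc2b over the tissues and 94.6% of that of Morc1. Morc3, a MORC protein of nuclear bodies, was the broadest, with 22.5 FPKM in wild-type spleen, 16.1 in testes, 11.2 in MEFs, 7.90 in eye, 7.62 in liver, 5.94 in prostate and 5.84 in heart. Morc4, on the X chromosome, was at 7.51 FPKM in MEFs and 5.18 in prostate and at 0.179 in spleen.

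Across tissues on the rescaled scale, most members were highest in testes or spleen and lowest in liver. Wild-type testes had the highest level of Morc1, Morc2b, Mphosph8, Setdb1 and Trim28, spleen that of Morc3, Fam208a and Atf7ip, and MEFs that of Morc4 and Pphln1. Liver had the lowest level of Morc3, Mphosph8, Pphln1, Atf7ip and Trim28, by 4.18 times for Pphln1 and 8.70 times for Mphosph8 against the highest tissue. That place of liver depends on the scale, since its wild-type sum of FPKM, 1124500, was the largest. As deposited, Mphosph8 was lowest in liver, but Morc3, Setdb1 and Trim28 were lowest in heart, Pphln1 and Atf7ip in prostate and Fam208a in MEFs. Morc2a followed the same extremes, with testes highest, MEFs next and liver lowest, 7.80 times apart. Neighbours in these orders cannot be told apart, since the values carry no replicate error.

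**Figure D2:**
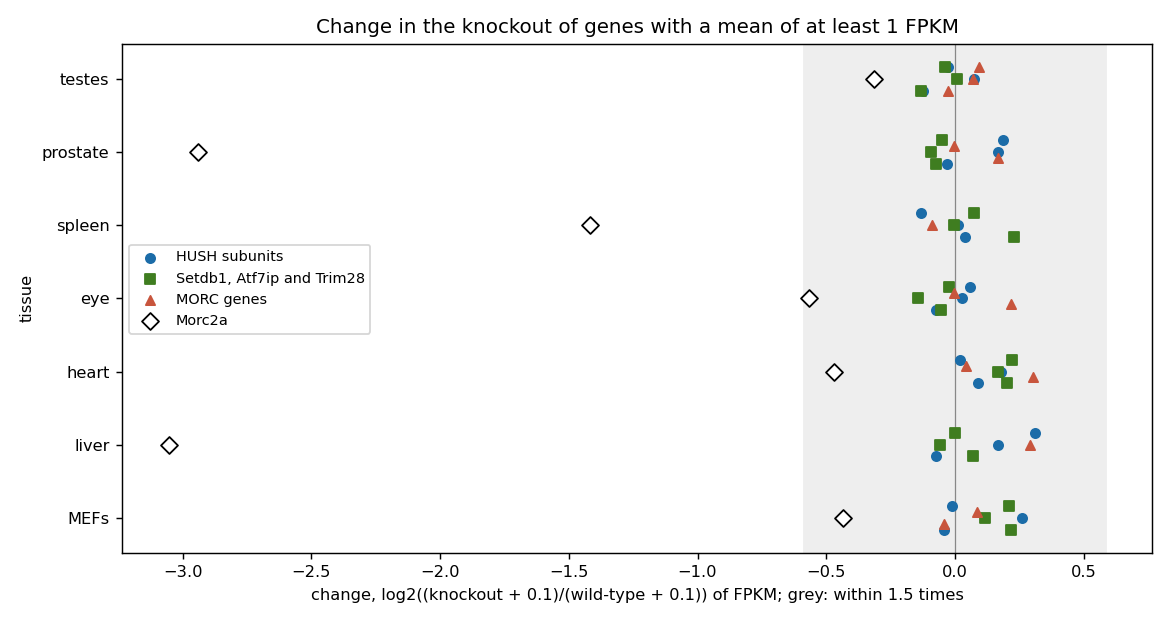
Change in the knockout (horizontal axis, log2 scale of FPKM + 0.1) of each member with a mean of at least 1 FPKM in 7 tissues (vertical axis), with Morc2a as diamonds and the grey band within 1.5 times. Every member lies inside the band, while Morc2a lies at -3.05 in liver, -2.94 in prostate and -1.42 in spleen.

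Liver had the lowest Morc2a value left. It was at 5.89 FPKM in wild-type and 0.621 in knockout (log2 change -3.05), or 10.55% of the wild-type level. Mphosph8 was at 8.05 FPKM in wild-type and 9.99 in knockout (0.31), the largest change of any counted member in any tissue, with 82.7% of counted liver genes changed by less. Morc3 was at 7.62 and 9.35 FPKM (0.29), with 81.1% of genes changed by less. The scaffold Fam208a was at 10.3 and 11.6 FPKM (0.17). Setdb1 was nearly the same in both, at 9.59 and 9.60 FPKM (0.0018), with Trim28 at 32.7 and 34.3 (0.07), Atf7ip at 7.29 and 7.003 (-0.06) and Pphln1 at 8.92 and 8.48 (-0.07). Thus 5 of 7 counted members were higher and 2 lower, with a median change of 0.07 against -0.02 over all 11711 counted genes, of which 45.5% were higher.

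The sums of FPKM in liver were not equal between genotypes, and rescaling both to the same sum moved the liver changes up, the median of all genes to 0.14. On that scale all 7 counted members were higher in knockout liver, Mphosph8 by 0.46 and Morc3 by 0.45, with the members' median at 0.23. Measured from the median of all genes, 5 of 7 were higher, as on the deposited scale. The sum of the macrophage markers was higher in knockout liver, with 1 of the 2 genes past the fold limit. Of 5 counted proliferation genes 4 were higher, with a median change of 0.31. The macrophage sum and the proliferation median moved the same way as Mphosph8 and Morc3. The part of these genes in the changes of Mphosph8 and Morc3 was not tested. Morc4 was at 1.20 FPKM in wild-type liver and 0.802 in knockout (-0.52), with a mean just under the limit for counting.

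Prostate showed the same order of loss of Morc2a, with 8.80 FPKM in wild-type and 1.06 in knockout (-2.94), or 12.05% left. Mphosph8 was at 9.24 FPKM in wild-type and 10.5 in knockout (0.19), Fam208a at 9.88 and 11.1 (0.17), and Morc4 at 5.18 and 5.82 (0.17), each with between 69.1% and 74.2% of counted genes changed by less. Morc3 was at 5.94 and 5.92 FPKM (-0.0045). Atf7ip was at 6.90 and 6.46 (-0.09), Trim28 at 90.4 and 85.9 (-0.07), Setdb1 at 9.58 and 9.25 (-0.05) and Pphln1 at 6.17 and 6.03 (-0.03). With 3 of 8 counted members higher, the median change was -0.02 against -0.04 over all genes. After rescaling 6 of 8 were higher, and 5 of 8 from the median of all genes. Among all counted prostate genes 39.1% were higher as deposited, and rescaling moved their median to 0.02. The sum of the seminal vesicle markers was higher in knockout prostate, as given above, with 1 of the 3 genes past the fold limit. The adipocyte markers Adipoq and Plin1 summed to 5.53 FPKM in wild-type and 20.6 in knockout. Of 9 counted proliferation genes 8 were lower, with a median change of -0.18. Their part was not tested.

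In spleen, Morc2a was at 11.3 FPKM in wild-type and 4.15 in knockout (-1.42), or 36.87% left. Trim28 was at 51.4 FPKM in wild-type and 60.2 in knockout (0.23), with 74.2% of counted genes changed by less. Mphosph8 was at 13.4 and 12.2 FPKM (-0.13) and Morc3 at 22.5 and 21.2 (-0.09), so these 2 genes were lower in knockout spleen and higher in knockout liver, under both other scalings too. The difference between tissues was not tested. Setdb1 was at 9.75 and 10.3 FPKM (0.07), Pphln1 at 9.26 and 9.51 (0.04), Fam208a at 12.3 and 12.4 (0.01) and Atf7ip at 22.4 and 22.3 (-0.01). In all, 4 of 7 counted members were higher in knockout spleen on the deposited scale, 3 after rescaling and 5 from the median of all genes. Among all counted spleen genes 45.5% were higher as deposited, and rescaling moved their median from -0.02 to -0.05. Proliferation genes moved with Trim28: all 12 counted were higher in knockout spleen and past 1.5 times, among them Rrm2 at 27.8 and 59.0 FPKM (1.08), Tyms (1.04), Mki67 (1.03) and Bub1 (1.03). The erythroid gene Alas2 was at 212 FPKM in wild-type and 437 in knockout spleen. Their part in the spleen values was not tested.

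In liver, prostate and spleen, the other MORC genes together were not higher by as much FPKM as Morc2a was lower. In liver the difference of Morc2a, knockout minus wild-type, was -5.27 FPKM, and the sum of Morc1, Morc2b, Morc3 and Morc4 was 8.81 FPKM in wild-type and 10.2 in knockout, a difference of 1.35. In prostate the same difference was -7.74 FPKM for Morc2a and 0.624 for the sum of the others, which was 11.2 in wild-type and 11.8 in knockout. In spleen it was -7.11 FPKM for Morc2a, and the sum of the others was 22.7 in wild-type and 21.4 in knockout, which is lower as well. The share of Morc2a in the summed MORC level was 40.1% in wild-type and 5.76% in knockout liver, 44.1% and 8.25% in prostate, and 33.2% and 16.2% in spleen. After rescaling, the differences of the sum kept these directions, with 2.24 in liver, 1.91 in prostate and -3.66 in spleen, beside -4.62, -12.7 and -15.1 for Morc2a. Testes differed from this in amount, with -5.84 FPKM for Morc2a and 5.46 for the sum of the others, most of it Morc2b, whose level is high there (127 FPKM in wild-type and 133 in knockout for the sum). After rescaling the testes differences were -5.65 and 20.6, so how nearly the amounts match there depends on the scale. In eye, heart and MEFs the sum of the others differed by 0.150, 0.598 and 0.471 FPKM, against -3.63, -2.13 and -4.32 for Morc2a, and after rescaling the eye difference of the sum was -0.128.

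**Figure D3:**
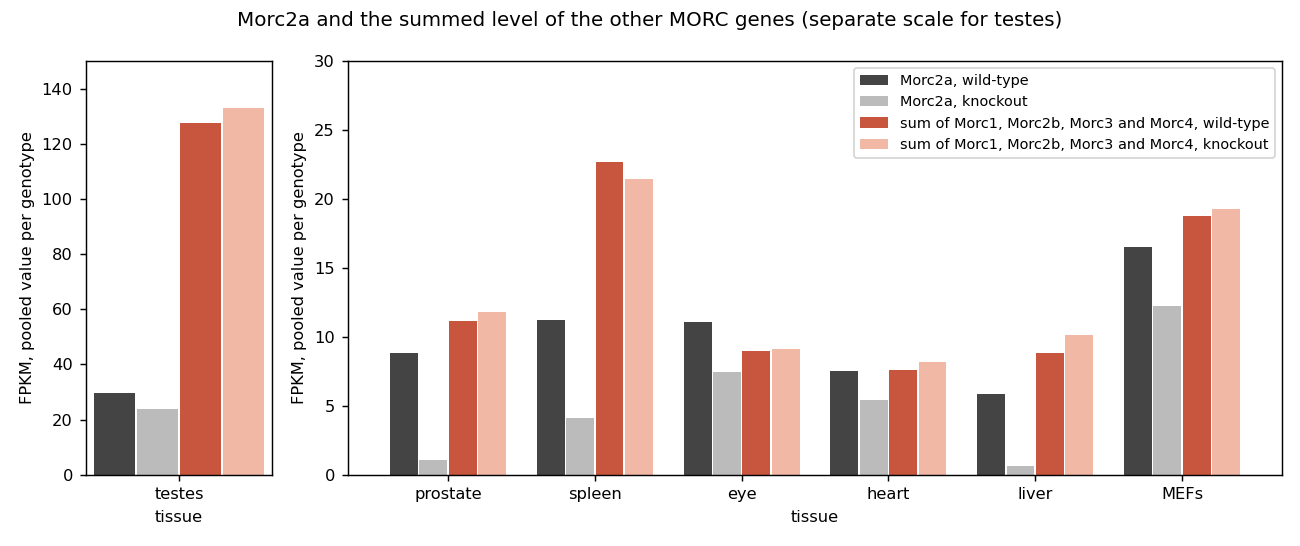
Pooled FPKM (vertical axis, from 0) of Morc2a and of the sum of Morc1, Morc2b, Morc3 and Morc4 by tissue (horizontal axis) and genotype, with testes on a scale of its own. Knockout minus wild-type, the Morc2a bars differ by -5.27 FPKM in liver and -7.74 in prostate, while the summed bars differ by 1.35 and 0.624.

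In testes, the tissue with the most Morc2b, Morc2a was least changed, at 29.8 FPKM in wild-type and 23.9 in knockout (-0.31). The germ line genes Morc2b (0.07) and Morc1 (0.09) differed little, and so did Mphosph8, at 45.4 and 44.5 FPKM (-0.03). The members with the most distant values were Trim28, at 179 and 163 FPKM (-0.13), and Pphln1, at 21.0 and 19.3 (-0.12). Of 9 counted members 4 were higher as deposited, and 7 after rescaling and from the median of all genes, so their direction in testes depends on the scale. Among all counted testes genes 36.4% were higher as deposited, and rescaling moved their median from -0.06 to 0.04. The testes markers Prm1, Prm2, Tnp1 and Acr, all of late germ cells, summed to 30990 FPKM in wild-type and 26491 in knockout.

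In heart, where Morc2a was at 7.54 FPKM in wild-type and 5.41 in knockout (-0.47), all 8 counted members were higher in the knockout, by 0.02 to 0.30, with a median of 0.17 against 0.03 over all genes. After rescaling 6 of 8 were higher, with Mphosph8 at -0.06 and Morc3 at -0.04, and from the median of all genes 7 of 8. Among counted heart genes 58.6% were higher in the knockout on the deposited scale. Morc4 was at 1.65 and 2.06 FPKM (0.30), with 90.7% of counted genes changed by less, the highest such share of any member. Setdb1 was at 4.69 and 5.49 FPKM (0.22), Trim28 at 24.2 and 27.9 (0.20), Fam208a at 4.41 and 5.00 (0.18) and Atf7ip at 13.9 and 15.7 (0.17). The 7 counted proliferation genes were all higher too, with a median change of 0.26, and the adipocyte markers summed to 30.8 FPKM in wild-type and 13.5 in knockout heart. Their part was not tested.

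In MEFs, Morc2a was at 16.5 FPKM in wild-type and 12.2 in knockout (-0.43). Fam208a was at 4.05 and 4.86 FPKM (0.26), Trim28 at 77.9 and 90.7 (0.22) and Setdb1 at 8.87 and 10.3 (0.21), while Morc3 (0.09), Morc4 (-0.04), Pphln1 (-0.04) and Mphosph8 (-0.01) were closer. The median was 0.10, with 5 of 8 counted members higher as deposited and from the median of all genes, and 8 of 8 after rescaling. Among all counted MEF genes 49.8% were higher as deposited, and rescaling moved their median from -0.001 to 0.06. Of the 12 proliferation genes 11 were higher in knockout MEFs, with a median change of 0.21, and their part in these values was not tested.

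In eye, with Morc2a at 11.1 and 7.45 FPKM (-0.57), the values spanned Atf7ip, at 16.9 and 15.3 FPKM (-0.15), to Morc4, at 0.973 and 1.15 (0.22). Of the 8 counted members 3 were higher as deposited, 2 after rescaling and 4 from the median of all genes. Among all counted eye genes 43.5% were higher as deposited, and rescaling moved their median from -0.02 to -0.06. Skeletal muscle markers (Acta1, Myh4, Ckm) summed to 640 FPKM in wild-type and 1203 in knockout eye, the adipocyte markers to 10.8 and 32.3, and Alas2 was at 4.81 and 13.8. All 7 counted proliferation genes were lower in knockout eye, with a median change of -0.28. The part of these genes in the members' values was not tested.

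Fam208a was the member that was higher in the knockout in all 7 tissues as deposited, by 0.01 in spleen to 0.26 in MEFs, and also in 7 from the median of all genes, while after rescaling it was lower in spleen (-0.02) and eye (-0.0042). Of the windows of a read's length along its transcript, 21.0% also occur in Ccdc66 on the other strand, with which its end overlaps. Ccdc66 was lower in the knockout in all 7 tissues, by between -0.18 in prostate and -0.01 in heart. Mphosph8 shares 7.12% of its windows with Gm16973 on the other strand, which was at 2.15 FPKM in wild-type liver and 2.28 in knockout (0.08). Setdb1 shares 4.43% of its windows with other genes. How reads of those stretches were divided between the genes is not given in the sources used here. Morc3, Morc4, Pphln1 and Trim28 share no window with another gene. The values of Fam208a, Mphosph8 and Setdb1 are therefore less certain than theirs.

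A list of 32 other silencing genes, among them the H3K9 methyltransferases Suv39h1, Suv39h2, Ehmt1 and Ehmt2, HP1 proteins, DNA methyltransferases and deacetylases, was read in the same way. Between 26 and 32 of them were counted in a tissue, with median changes from -0.08 in prostate to 0.04 in spleen, and 1 passed 1.5 times in spleen, 1 in liver and 1 in MEFs. These counts are near the shares of all genes past that limit, 6.02% in spleen, 4.81% in liver and 3.18% in MEFs. Uhrf1, which brings Dnmt1 to newly copied DNA, was at 12.8 FPKM in wild-type and 23.2 in knockout spleen (0.85), where the proliferation genes were higher too. Mbd1, which binds methylated CG, was at 17.4 and 36.3 FPKM in liver (1.05). Atrx, a chromatin remodeller that places histone H3.3 at silent repeats, was at 28.0 and 17.7 FPKM in MEFs (-0.66).

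**Figure D4:**
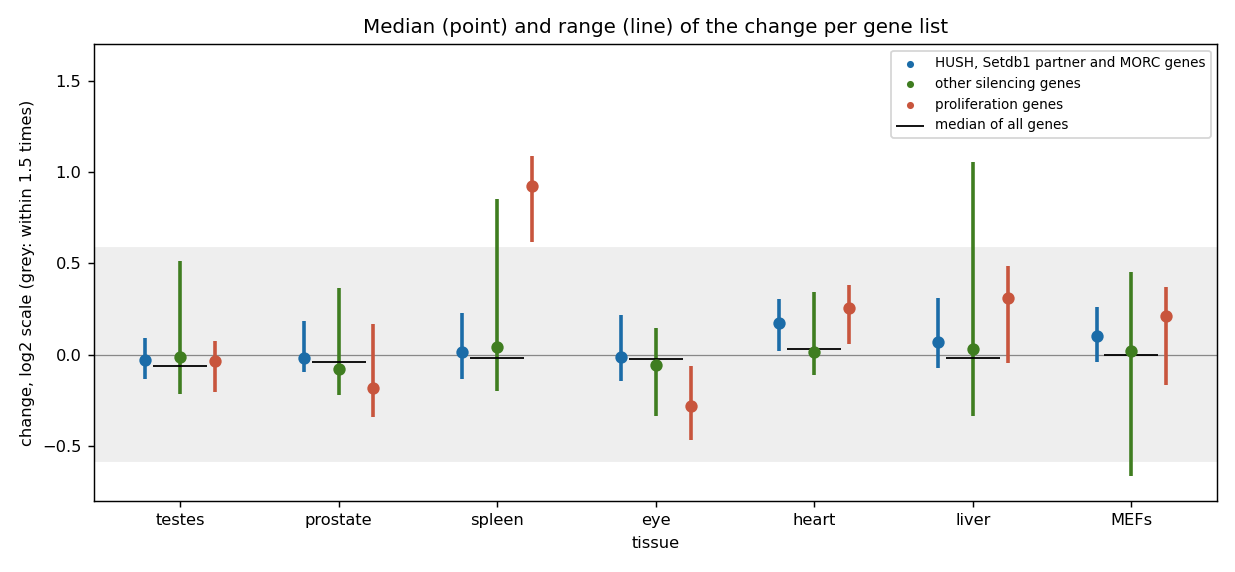
Median (point) and range (line) of the change in the knockout (vertical axis, log2 scale) by tissue (horizontal axis) for the counted members, the other silencing genes and the proliferation genes, with a dash for the median of all counted genes. The members stay within the grey band of 1.5 times in each tissue, while proliferation genes have a median of 0.92 in spleen.

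Genes that H3K9 methylation is known to help keep silent in some cells were read beside the members. Of 19 germ cell genes, all were counted in testes, with a median change of -0.03, and none passed 1.5 times there. In spleen and MEFs none of the 19 reached 1 FPKM, and 2 were counted in prostate, 3 in eye, 2 in heart and 2 in liver. The germ cell genes past 1.5 times were both lower in the knockout: Brdt, a testis bromodomain gene, at 1.47 and 0.943 FPKM in prostate (-0.59), and Sycp3, of the meiotic chromosome axis, at 6.00 and 3.97 in liver (-0.59). After rescaling neither was past that limit, with -0.55 and -0.43. With so few of the list counted outside testes, and none in spleen, these values say little about the germ cell genes where Morc2a was lowest.

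The clustered protocadherin beta genes, Pcdhb1 to Pcdhb22, code for neuronal cell adhesion proteins and form a family of related copies. How much sequence they share at read length was not measured here, so reads may have been split among them. None was counted in liver, prostate or spleen. In eye 15 of 22 were counted, 14 of them lower in the knockout with a median of -0.16. Over all counted eye genes 8082 of 14298 were lower, with a median of -0.02. Pcdhb9 was past 1.5 times in eye at 3.64 and 2.28 FPKM (-0.65). In MEFs both counted genes were lower and past that limit, Pcdhb22 at 2.38 and 1.46 FPKM (-0.67) and Pcdhb17 at 2.38 and 1.49 (-0.65).

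The genes most like the testes members were named by the Pearson correlation of log2 levels over the 14 pooled values, which share a single testes pair that sets most of the correlation. For Morc2b these were Dazl, a germ cell RNA-binding protein (r = 0.9986), 1110017D15Rik (0.9985) and 1700001C02Rik (0.9984), and 214 genes had r over 0.99. For Morc1 they were Csnk2b (0.993), Gm4665 (0.993) and Haglr (0.993), and 12 genes had r over 0.99. Dazl was at 55.9 FPKM in wild-type testes and 59.1 in knockout. Csnk2b, the regulatory subunit of casein kinase, was at 1149 FPKM in wild-type testes and reached 112 in liver. Its likeness is thus of the shape on the log scale and not of a restriction to testes. Gm4665 was at 43.7 FPKM in wild-type testes and at most 0.0767 in the other wild-type tissues, and Haglr at 16.5 and at most 0.115.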

How the data were processed

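Poly(A) RNA had been sequenced with a TruSeq kit that does not keep the strand. The authors' deposited table holds 1 FPKM value per genotype and tissue, with replicates combined. The unit is that of the Cuffdiff layout and is not named in the header. The submitters' processing notes name CASAVA 1.8.2, TopHat2, Cuffdiff and mm10, without roles. The paper's methods describe a route through read counts for the authors' own calls. The table also holds the authors' log2 fold changes, test statistics, p-values and q-values, and none of these was used. Adult brain was not analysed here. The table gives no counts and no value per sample, so the depth is unknown and no test, standard deviation or interval was computed.

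The FPKM of each genotype were compared as log2((KO + 0.1)/(WT + 0.1)). The added 0.1 makes changes of low genes look smaller. Genes entered with a mean of at least 1 FPKM, and changes past 1.5 times were counted beside the same share of all genes. Levels across tissues were also rescaled to a sum of 1000000 per group, since the deposited sums differed. Named were all 10 members, Morc2a and Tug1, at most 4 genes per list and tissue past 1.5 times, by the largest change, and the 3 genes most like Morc1 and Morc2b. Genes outside this rule (Ccdc66, Gm16973 and markers) are given because a value of a member touches them. The members and lists were chosen with earlier results of these data known. Fam208a was matched through its gene ID. Alternatives were pseudocounts of 1 and 0.01, rescaling, centring on the median of all genes, no filter, and limits of 1.25 and 2 times. Tested on simulated data, the count found 200 of 200 planted changes in each tissue. All planted changes were set well past the 1.5 limit and were larger than that of any counted member. The test therefore checks the counting, and not whether changes of the members' size would be found. Python 3.11.15, numpy 2.4.6, pandas 2.3.3 and matplotlib 3.10.9 were used.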

Additional observations from a re-analysis of the deposited data

How the results depend on the processing

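The count of members past 1.5 times was 0 in each tissue under pseudocounts of 1 and 0.01, rescaling, centring, no filter on low values, and both the wider and the narrower fold limit. The count without the filter says little about Morc1 and Morc2b outside testes. They were under 0.1 FPKM there, where the added 0.1 keeps changes small. Rescaling to equal sums moved the members' median change in liver from 0.07 to 0.23 and the count of other silencing genes past 1.5 times in testes from 0 to 1, because the wild-type sum of FPKM exceeded that of the knockout by 0.16 in liver and 0.10 in testes on the log2 scale. It turned the sign of 15 of the 55 changes of single members, and centring turned 8, while the pseudocounts turned none. Signs of single members near 0 therefore carry no weight. For Morc2a, which is low in knockout liver and prostate, a pseudocount of 1 gave -2.09 in liver and -2.25 in prostate. No paired analysis was possible because the table holds 1 pooled value per genotype, and for the same reason no fit with a replicate left out was run. The depth is unknown and the values used carry no replicate error, so a difference of the size seen in the members could be smaller than the spread between animals.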
